A study of Mus musculus with 18 samples.

Results

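Complement and coagulation are the plasma protease cascades that the liver supplies, and the 38 genes described here encode their hepatic components. They were selected by name, with no threshold on a measured value, from a liver expression table of 19057 rows, and all 38 were present and passed the filter on low values in every fit. By role they comprise 6 genes of the lectin and classical complement pathways, 2 for C3 and the alternative pathway, 6 of the terminal pathway, 4 complement regulators, 5 of the contact system, 6 vitamin K-dependent proteins, 2 for a cofactor and a crosslinking subunit, 3 fibrinogen chains, 2 of fibrinolysis and 2 heparin-binding serpins.

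Complement begins when mannose-binding lectins or antibody recognise a surface, or through the alternative pathway, and all routes meet at the cleavage of C3. Cleavage of C5 (Hc in the mouse) then lets C6, C8 and C9 join C7 in a pore through the target membrane. In coagulation, surface contact activates factor XII, prekallikrein, kininogen and factor XI, or tissue factor activates factor VII, and both routes end with thrombin cutting fibrinogen into fibrin, which plasmin later dissolves. Hepatocytes make most of these proteins and release them into blood, and several, fibrinogen among them, are acute-phase proteins that rise in inflammation. Only mRNA was measured here.

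Livers of male ICR mice were sampled at 10 weeks of age in 6 groups of 3 libraries each. Con mice received a regular diet and saline. STZ mice received 1 injection of streptozotocin, which destroys the insulin-producing cells of the pancreas and is used as a model of type 1 diabetes. A10-FMT and Con-FMT mice received STZ and then oral transplants of small-intestinal content, pooled from donors given alginate oligosaccharide (AOS, a fragment of the seaweed polymer alginate) at 10 mg/kg or from control donors. AOS mice and STZ+AOS mice are known here only from their labels, as treated with AOS at 10 mg/kg without or with STZ, and their dosing schedule is not given in the sources used here. Libraries are named by group and replicate, and values are RPKM, read numbers corrected for how long a transcript is and how deeply its library was mapped, so levels can be compared between genes. The labels number the libraries of a group as replicates without naming a mouse for each, so p-values measure the spread between these libraries. Means are given ± SD over 3 libraries.

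Summed RPKM per library ran from 717904 to 806937 in Con and AOS and from 621121 to 712798 in the groups given STZ, without overlap. The 38 genes held 2.69% to 5.08% of the sum of a library. Hepatocyte markers were abundant in every library (10 genes, summed RPKM 52004 to 90694). In the Con group, replicate 3 lay between replicates 1 and 2 in 147 of the 149 genes that differed at least 2-fold between those 2 libraries (98.7%). In the AOS group, replicate 3 lay between the others in 119 of 124 such genes (96.0%), whereas the highest share for any library of the other 4 groups was 83.5%. On a scale from 0 at replicate 1 to 1 at replicate 2, Con 3 had a median position of 0.472 (quartiles 0.419 and 0.518). AOS 3 had a median position of 0.645 (quartiles 0.591 and 0.707). The cause was not tested, and main results are therefore also given without these libraries. All other SEs and p-values treat the 3 libraries of a group as independent. They understate the spread if Con 3 or AOS 3 is not. Counts of genes without overlap with Con or AOS then also rest mostly on replicates 1 and 2 of that group. The summed level of 13 acute-phase genes was high in Con 1 (32575), Con 3 (21291), STZ+AOS 1 (35034) and STZ 2 (13246) and lay between 5434 and 9802 in the 14 other libraries. STZ+AOS 3 held pancreatic acinar markers (6 genes, sum 71.3, against at most 1.89 elsewhere).

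The 38 levels spanned more than 2 orders of magnitude. In Con livers the mean was highest for Fgb (3807 ± 822 RPKM), Fgg (3372 ± 591 RPKM), Fga (2582 ± 518 RPKM) and C3 (1994 ± 216 RPKM), and lowest for Masp1 (31.4 ± 2.37 RPKM) and Pros1 (12.8 ± 2.02 RPKM). The spreads of Fgb, Fgg and Fga overlap, so their order among themselves is not resolved. Over all 18 libraries the ratio of the highest to the lowest value ran from 1.34-fold for F12 to 34.8-fold for C6. It stayed under 2-fold in 16 genes, among them Vtn, Serpinc1, Plg and F2, and it was 16-fold for C8a, 11.7-fold for C9 and 5.8-fold for C8b, the next widest after C6. The widest ranges thus all belonged to the terminal pathway.

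A gene was called when its adjusted p in limma, over all genes tested, was under 0.05. In STZ against Con, 8 of the 38 genes rose, against 33.0% of all 10602 genes tested, and 12 fell, against 5.52%. The genes that fell comprised the pore-forming end of complement, where all 6 genes fell, together with 2 fibrinogen chains, F11, C4bp, Mbl1 and Cfb. The rise took in the kininogens, Mbl2, F5, F13b, C3, Pros1 and F9. Prothrombin, plasminogen, antithrombin and most of the vitamin K-dependent factors were not called. The median log2 change of the 38 genes was -0.0090, against 0.21 for all genes tested. In 9 of the 38 genes every STZ library lay above every Con library, against 40.8% of all genes, and in 15 every STZ library lay below, against 6.98%.

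Median-ratio scaling sets the median change over all genes near 0 by construction, here to -0.0070 in place of 0.21. On that scale 4 of the 38 genes rose (Mbl2, Kng2, F5 and F13b), against 14.0% of all genes, and 15 fell, against 13.3%, because C4b, Fgb and Vtn were added to the 12 genes named. C3, Kng1, Pros1 and F9 were thus higher as deposited but not called after scaling. When each of the 6 Con and STZ libraries was left out in turn, 12 of the 20 calls held every time, namely C6, C8a, C8b, C9, C4bp, F11 and Mbl1 (lower) and Mbl2, Kng2, F5, F13b and Pros1 (higher). Without Con 3 exactly these 12 were called, against 25.9% of all genes in either direction. Without STZ 1 there were 13, against 3187 of all 10548 genes tested.

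**Figure D1:**
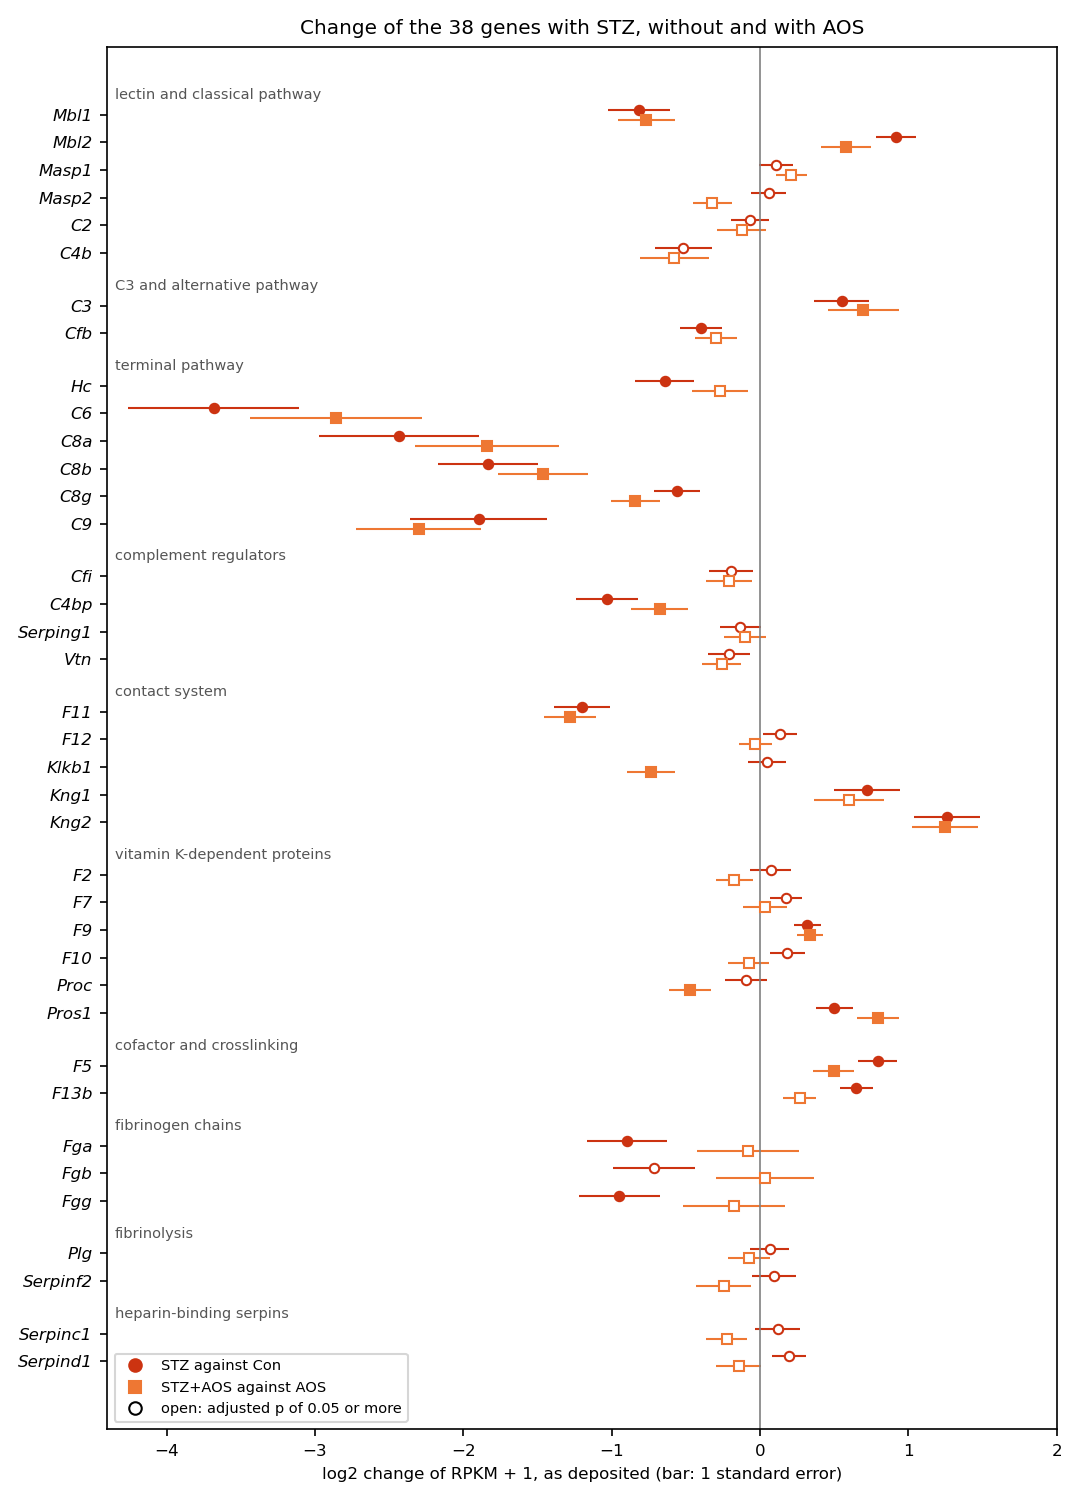
Change of each of the 38 genes between STZ and Con (circles) and between STZ+AOS and AOS (squares), as log2 of RPKM + 1 with 1 standard error, grouped by role. Filled symbols mark genes called in limma. The terminal-pathway genes C6, C8a, C8b and C9 lie farthest to the left in both comparisons, from -1.46 to -3.68, and Kng2 lies farthest to the right, at 1.26 and 1.24.

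All 6 members of the terminal pathway were called, and all in the same direction. Its 6 mRNAs together amounted to 1500.0, 1129 and 1365 RPKM in the Con libraries and to 338, 487 and 755 RPKM in the STZ libraries. C6, the first protein to bind activated C5, was measured at 120.5, 92.7 and 109 RPKM in Con and at 4.40, 4.21 and 20.1 RPKM in STZ. All STZ values lay far below all Con values, and STZ 3 was the highest of the STZ group. The change was -3.68 on the log2 scale (SE 0.58, adjusted p = 0.00124), or 12.8-fold lower on the RPKM + 1 scale used for all tests.

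C8a, C8b and C8g encode the α, β and γ chains of C8, which anchors the pore in the membrane. C8a stood at 318, 244 and 291 RPKM in Con and 19.9, 43.6 and 154 RPKM in STZ (log2 change -2.43, SE 0.54, adjusted p = 0.00586). C8b stood at 209, 198 and 207 RPKM in Con and 36.1, 42.99 and 117 RPKM in STZ (log2 change -1.83, SE 0.34, adjusted p = 0.00258). For both chains STZ 1 and STZ 2 were several-fold under the Con range, and STZ 3 lay between them and Con. C8g, a lipocalin chain unrelated in structure to the other chains, fell less, from 303, 307 and 339.5 RPKM in Con to 179.9, 239 and 229 RPKM in STZ (log2 change -0.56, SE 0.15, adjusted p = 0.016), so that mean C8g exceeded mean C8b 1.54-fold in Con and 3.30-fold in STZ. In STZ 3, C8g was not the highest of its group, unlike C8a and C8b.

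C9, which polymerises to form the wall of the pore, was at 433, 169.9 and 301 RPKM in Con and 37.1, 72.4 and 154 RPKM in STZ (log2 change -1.90, SE 0.46, adjusted p = 0.00901). The Con libraries themselves spread widely for C9, with the highest value in Con 1, and no STZ library reached the lowest of them. Hc (C5) was nearly identical in the Con libraries, at 116, 116 and 117 RPKM, and lower in STZ, at 60.2, 84.9 and 80.3 RPKM (log2 change -0.64, SE 0.20, adjusted p = 0.0264). Hc and C8g were not called in every fit that left out 1 library (2 and 4 of 6 fits), whereas C6, C8a, C8b and C9 were.

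**Figure D2:**
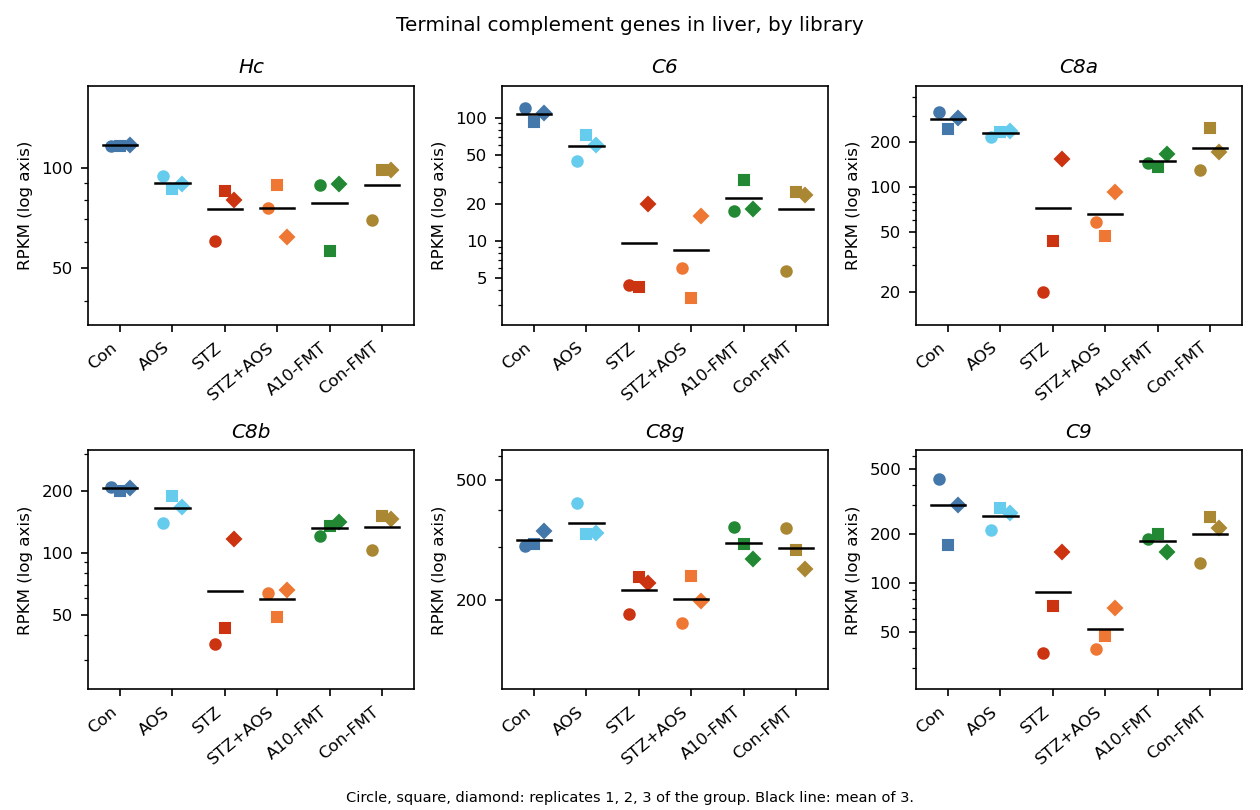
RPKM (log axis) of the 6 terminal complement genes in each of the 18 libraries, with the mean of each group. For C6, C8a, C8b and C9 the libraries STZ 1 and STZ 2 lie lowest or near lowest, STZ 3 lies higher (C8a 154 RPKM against 19.9 and 43.6), and the transplant groups lie between STZ and Con on average.

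C8a and C8b are neighbours on chromosome 4 (GRCm38), 11.1 kb apart and transcribed towards each other, so their promoters lie at the outer ends of the pair. Fga and Fgb are likewise neighbours on chromosome 3, 6.51 kb apart and converging. Their upstream sequences are shown because C8a and C8b both fell, and because Fga fell and Fgb, its neighbour, was called as lower after median-ratio scaling. RefSeq promoters were matched for 29 of the 38 genes, and the 250 bases before the start were searched on both strands for GTTAAT (an HNF1 half-site), AAGTCCA (an HNF4 half-site), TTGCNNAA (C/EBP) and TTCNNNGAA (STAT), where matches of different motifs were allowed to overlap. Capitals mark the matches, 5′ to 3′ on the strand of the gene, in GRCm38.p6.
C8a, chr4:104876399-104876648, minus strand: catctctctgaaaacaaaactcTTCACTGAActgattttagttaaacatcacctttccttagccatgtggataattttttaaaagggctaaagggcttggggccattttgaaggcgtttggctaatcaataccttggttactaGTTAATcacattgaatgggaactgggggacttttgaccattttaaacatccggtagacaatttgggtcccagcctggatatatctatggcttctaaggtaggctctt
C8b, chr4:104766067-104766316, plus strand: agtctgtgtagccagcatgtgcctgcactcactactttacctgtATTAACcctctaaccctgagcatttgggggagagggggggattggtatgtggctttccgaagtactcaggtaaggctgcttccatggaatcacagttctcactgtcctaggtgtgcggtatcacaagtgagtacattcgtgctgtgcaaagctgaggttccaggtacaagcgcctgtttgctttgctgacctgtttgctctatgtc
Fga, chr3:83025903-83026075, plus strand, ending where GENCODE places the first exon: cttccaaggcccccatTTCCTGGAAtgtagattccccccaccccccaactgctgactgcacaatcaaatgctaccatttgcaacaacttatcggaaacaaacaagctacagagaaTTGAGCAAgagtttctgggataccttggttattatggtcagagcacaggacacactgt
Fgb, chr3:83049864-83050113, minus strand: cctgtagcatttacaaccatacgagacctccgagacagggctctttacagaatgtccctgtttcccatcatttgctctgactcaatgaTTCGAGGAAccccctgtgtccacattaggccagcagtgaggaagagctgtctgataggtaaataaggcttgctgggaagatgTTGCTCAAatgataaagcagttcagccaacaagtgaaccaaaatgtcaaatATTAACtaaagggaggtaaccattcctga

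The 29 windows are 1 per gene, at its most upstream start. The 32851 promoters set beside them include every listed start, of genes expressed in liver or not, so the shares are not strictly alike. GTTAAT stood in 8 of the 29 windows (27.6%; Hc, C8a, C8b, C4bp, Vtn, F13b, Fga and Fgb), against 6.43% of all 32851 promoters. TTGCNNAA stood in 8 (27.6%; C3, C9, F11, Klkb1, Kng2, F9, Fga and Fgb), against 9.56%, and TTCNNNGAA in 6 (20.7%; Masp2, C8a, F9, Pros1, Fga and Fgb), against 7.02%. AAGTCCA stood in 1 (F10), against 3.36%. Fga and Fgb each held 3 of the 4 motifs. The GTTAAT match of Fga lies 43 bases before the RefSeq start, inside the first exon of GENCODE, and is therefore not shown. Genes that rose (F13b, Kng2) and genes that fell (C8a, C8b, Fga) both held matches, and no binding was measured.

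Among the genes that start complement, the lectins moved in opposite directions. Mbl1 and Mbl2 encode the mannose-binding lectins A and C, soluble receptors for microbial sugars. Mbl1 was at 211, 190.3 and 222 RPKM in Con and 92.9, 96.96 and 179 RPKM in STZ (log2 change -0.82, SE 0.21, adjusted p = 0.0111), with STZ 3 just under the lowest Con library. Mbl2 was at 350.1, 353 and 358 RPKM in Con and 732, 615 and 663 RPKM in STZ (log2 change 0.92, SE 0.13, adjusted p = 9.1e-04), and here STZ 3 was not set apart. Mean Mbl2 thus exceeded mean Mbl1 1.70-fold in Con and 5.45-fold in STZ. The lectin-associated proteases were not called: mean Masp1 was 31.4 ± 2.37 RPKM in Con and 34.01 ± 3.56 RPKM in STZ, and mean Masp2 159 ± 15.3 RPKM and 166 ± 20.8 RPKM. Neither was C2, the protease subunit of the classical convertase, at 45.1 ± 1.32 RPKM and 43.6 ± 8.58 RPKM.

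C4b, its partner, was at 326, 249 and 306 RPKM in Con and 194, 201 and 217 RPKM in STZ (log2 change -0.52, SE 0.19, adjusted p = 0.0517). The groups did not overlap, but the gene was called only after median-ratio scaling (adjusted p = 0.0223). The value of C4b is uncertain because 45.5% of the 35-base words of its longest transcript also occur in the neighbouring copy C4a, which itself was called lower. C3, the protein on which all routes converge, was at 2158, 1749 and 2076 RPKM in Con and 2921, 3461 and 2432 RPKM in STZ (log2 change 0.55, SE 0.19, adjusted p = 0.0373). Cfb, which supplies the protease of the alternative convertase, was at 624, 529.9 and 616 RPKM in Con and 468, 461 and 412 RPKM in STZ (log2 change -0.40, SE 0.14, adjusted p = 0.0428). The values of Cfb and of C2 are uncertain too, since 81.5% and 59.4% of their 35-base words occur in Gm20547, an annotated gene that overlaps both. C3 and Cfb were each called in only 1 of the 6 fits that left out a library.

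Of the regulators, C4bp, which disables the classical convertase, was at 353, 233 and 301 RPKM in Con and 132, 125 and 174 RPKM in STZ (log2 change -1.03, SE 0.21, adjusted p = 0.00378). No STZ library reached the lowest Con library. The protease factor I, the C1 inhibitor and vitronectin were not called as deposited. Their means were 312 ± 14.8 RPKM in Con and 273 ± 35.2 RPKM in STZ for Cfi, 646 ± 54.6 and 589 ± 44.1 RPKM for Serping1, and 1533 ± 72.9 and 1329 ± 97.4 RPKM for Vtn. Vtn, which blocks assembly of the pore in solution, was called lower after median-ratio scaling (adjusted p = 0.0321).

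The contact system was split. F11, the zymogen of the protease that activates factor IX, was at 37.6, 45.5 and 41.1 RPKM in Con and 14.9, 14.1 and 24.9 RPKM in STZ (log2 change -1.200, SE 0.19, adjusted p = 0.00121). Its neighbour Klkb1 (prekallikrein), 4.66 kb away on chromosome 8 and read in the same direction, was at 40.4, 51.4 and 47.5 RPKM in Con and 53.7, 40.7 and 49.8 RPKM in STZ (log2 change 0.047, SE 0.13, adjusted p = 0.792). The F11 groups lay apart, and the Klkb1 groups overlapped. The value of Klkb1 is uncertain, since 42.9% of its 35-base words occur in Gm45753. F12 was not called either (mean 197 ± 11.5 RPKM in Con, 217 ± 22.8 RPKM in STZ).

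Kng1 and Kng2 encode kininogens, the carriers of bradykinin and cofactors of contact activation. Kng2 was at 127, 149 and 139.6 RPKM in Con and 384, 452 and 212 RPKM in STZ (log2 change 1.26, SE 0.22, adjusted p = 0.00205). Kng1 was at 1036, 1122 and 1092 RPKM in Con and 2232, 2184 and 1172 RPKM in STZ (log2 change 0.72, SE 0.22, adjusted p = 0.0259). In both genes STZ 1 and STZ 2 were about alike and STZ 3 was much nearer to Con. The split of reads between them is uncertain, since 26% of the 35-base words of Kng2 occur in Kng1 and 25% of those of Kng1 in Kng2.

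Vitamin K-dependent proteins carry modified glutamates that bind calcium and membranes. F2 (prothrombin) was at 678, 779 and 751 RPKM in Con and 824, 790.2 and 709 RPKM in STZ (log2 change 0.073, SE 0.14, adjusted p = 0.702), and the groups overlapped. Its estimate was below 0 after median-ratio scaling (-0.19) and after quantile normalization (-0.17). F9 was at 84.5, 75.7 and 79.6 RPKM in Con and 97.9, 105 and 96.8 RPKM in STZ (log2 change 0.32, SE 0.09, adjusted p = 0.0179), a small difference with no overlap. Pros1 (protein S, a cofactor of the anticoagulant protein C and a plasma partner of C4b-binding protein) was the least abundant of the 38 mRNAs in Con, at 15.1, 11.3 and 11.9 RPKM in Con and 18.4, 21.2 and 15.8 RPKM in STZ (log2 change 0.50, SE 0.13, adjusted p = 0.0106). The neighbours F7 and F10 and the anticoagulant Proc were not called. Their means in Con and STZ were 46.9 ± 1.31 and 53.5 ± 8.11 RPKM for F7, 179 ± 7.33 and 205 ± 31.4 RPKM for F10, and 286 ± 37.1 and 269 ± 41.7 RPKM for Proc.

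F5, the cofactor with which factor Xa makes thrombin, was at 47.4, 64.4 and 55.02 RPKM in Con and 91.4, 109 and 89.8 RPKM in STZ (log2 change 0.79, SE 0.13, adjusted p = 0.00172). F13b, the carrier subunit of the enzyme that crosslinks fibrin, was at 60, 81.2 and 70.4 RPKM in Con and 111, 112 and 108 RPKM in STZ (log2 change 0.65, SE 0.11, adjusted p = 0.00192). Both rose without overlap, and the STZ libraries were nearly identical for F13b. Both were called as deposited and after median-ratio scaling.

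The fibrinogen chains were the most abundant of the 38 mRNAs in Con livers, with means of 3807 ± 822 RPKM for Fgb, 3372 ± 591 RPKM for Fgg and 2582 ± 518 RPKM for Fga. Fga was at 3066, 2035 and 2644 RPKM in Con and 1042, 1672 and 1461 RPKM in STZ (log2 change -0.90, SE 0.27, adjusted p = 0.0236). Fgg was at 3951, 2770.4 and 3395 RPKM in Con and 1371, 1997 and 1882 RPKM in STZ (log2 change -0.95, SE 0.27, adjusted p = 0.0193). Fgb was at 4587, 2949 and 3885 RPKM in Con and 1959, 2771 and 2181 RPKM in STZ (log2 change -0.72, SE 0.28, adjusted p = 0.0603), which was not called as deposited but was after median-ratio scaling (adjusted p = 0.0323). In all chains every STZ library lay under every Con library.

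Within Con, fibrinogen and the acute-phase sum had the same order of libraries. Con 3 lay between Con 1 and Con 2 in 98.7% of the genes that differed at least 2-fold between them. The shared order therefore holds little more than the difference between Con 1 and Con 2. Con 1 and Con 3 had the highest fibrinogen of the Con group and also summed acute-phase levels of 32575 and 21291 RPKM, whereas Con 2 had 7037 RPKM and the lowest fibrinogen of its group. Without Con 1 the change of Fga was -0.76 (adjusted p = 0.0872) and that of Fgg -0.83 (adjusted p = 0.0714), and without Con 3 they were -0.87 (0.0675) and -0.94 (0.0559). None of these 4 is a call, and neither chain was called without STZ 1 (adjusted p = 0.0846 and 0.0682). Among the STZ libraries, STZ 2 had both the highest acute-phase sum (13246 RPKM) and the highest level of each chain. Under the same limit, C6, C8a, C8b and C9 among the terminal-pathway genes were also highest in Con 1 and lowest in Con 2, as was C4bp. Hc and C8g were not. Among the STZ libraries C6, C8a, C8b, C9 and C4bp were highest in STZ 3. The part of the acute-phase signal in the differences of fibrinogen and of these genes was not tested. Of the 13 acute-phase genes themselves, 5 fell in STZ against Con, against 5.52% of all genes, and 0 rose, against 33.0%. The sum of Con 2 (7037 RPKM) lay within the STZ range, 5595 to 13246 RPKM. In STZ+AOS against AOS the fall was not seen, as 0 of the 13 fell, against 6.11%, and 1 rose, against 31.8%. That comparison includes STZ+AOS 1, which had the highest sum of all libraries (35034 RPKM).

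**Figure D3:**
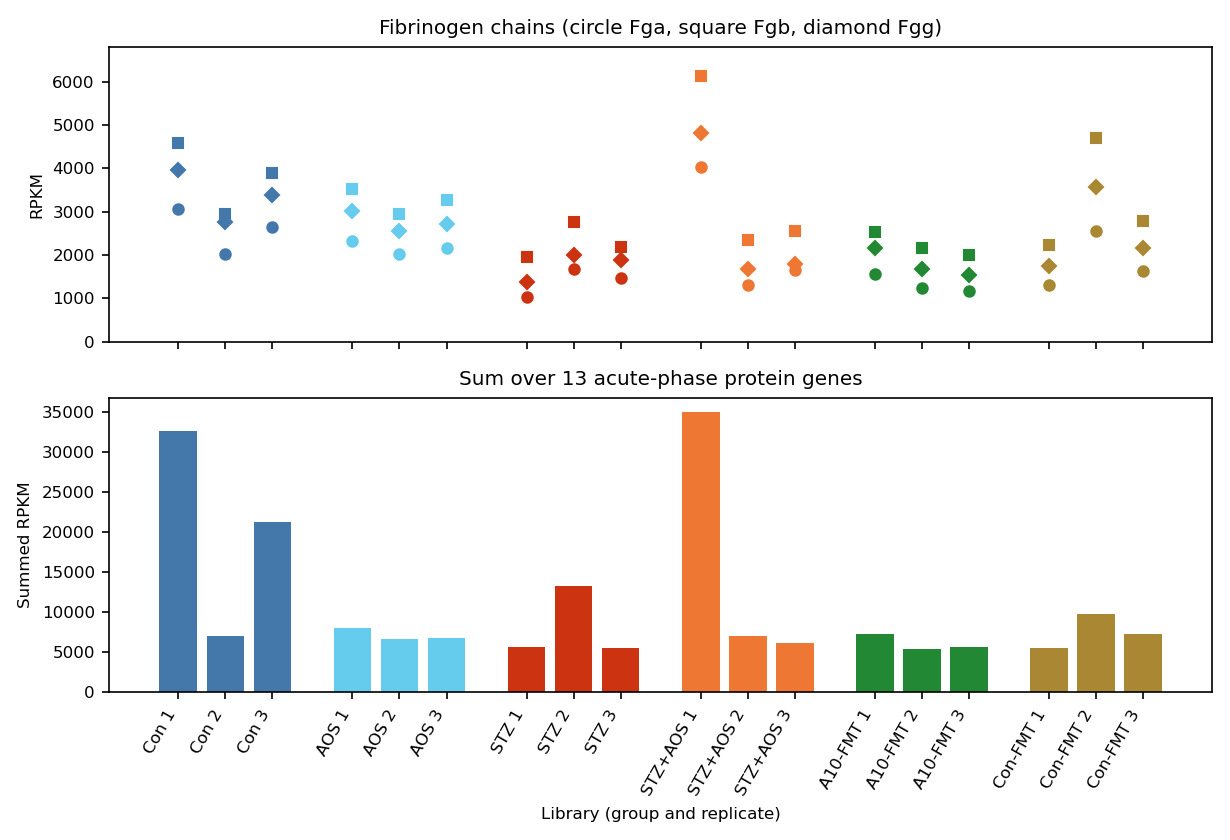
RPKM of the fibrinogen chains (top) and summed RPKM of 13 acute-phase protein genes (bottom) in each of the 18 libraries. STZ+AOS 1 has the highest values in both panels (Fgb 6132 RPKM, acute-phase sum 35034 RPKM), and Con 1, Con 3 and Con-FMT 2 are the next highest for Fga.

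Fibrinolysis and the heparin-binding serpins did not pass the test. Plg (plasminogen) was at 861, 896 and 887 RPKM in Con and 944, 945 and 878 RPKM in STZ (log2 change 0.065, SE 0.13, adjusted p = 0.722). Serpinc1 (antithrombin, the main inhibitor of thrombin) was at 1132, 1390.4 and 1299.5 RPKM in Con and 1562, 1433 and 1168 RPKM in STZ (log2 change 0.12, SE 0.15, adjusted p = 0.553). For both the groups overlapped, and the sign of the estimate turned after median-ratio scaling (-0.20 for Plg, -0.15 for Serpinc1). Serpinf2, the plasmin inhibitor, had means of 437 ± 16.5 RPKM in Con and 473 ± 102 RPKM in STZ, and Serpind1 (heparin cofactor II) of 277 ± 24.1 and 316 ± 27.6 RPKM.

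Beyond the 38 genes, 60 further complement, coagulation and vitamin K-cycle genes were listed, of which 35 passed the filter. In STZ against Con 4 of them rose, against 33.0% of all genes, 6 fell, against 5.52%, and 25 were not called, with a median log2 change of 0.12. After median-ratio scaling 1 rose (Hrg), against 14.0%, and 9 fell, against 13.3%. Tfpi2, a protease inhibitor of the tissue factor pathway inhibitor family, was at 49.8, 60.4 and 55.9 RPKM in Con and 15.9, 21.6 and 30.6 RPKM in STZ (log2 change -1.29, SE 0.21, adjusted p = 0.00128). Hrg, a histidine-rich plasma glycoprotein that binds heparin and plasminogen, was at 487, 464 and 482 RPKM in Con and 1180.2, 1088 and 727 RPKM in STZ (log2 change 1.03, SE 0.17, adjusted p = 0.00174). Hrg, like the kininogens, was lowest among STZ livers in STZ 3. Ggcx, the carboxylase that modifies the vitamin K-dependent proteins, fell (log2 change -0.51, SE 0.14, adjusted p = 0.0131), and Vkorc1l1, a vitamin K reductase, rose as deposited (log2 change 0.45, SE 0.08, adjusted p = 0.0022). Serpina10, the inhibitor of factor Xa that acts with protein Z, fell (log2 change -0.67, SE 0.19, adjusted p = 0.018), and Cd59a, a membrane inhibitor of the pore, rose as deposited (log2 change 0.50, SE 0.14, adjusted p = 0.02). The other calls were Cpb2, which encodes a carboxypeptidase that slows fibrinolysis and fell (log2 change -0.48, SE 0.15, adjusted p = 0.0238), and Vwf, the carrier of factor VIII (log2 change 0.38, SE 0.12, adjusted p = 0.0269), which was higher as deposited. Cd59a, Vkorc1l1 and Vwf were not called after scaling.

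C4a was at 33.3, 41.8 and 39.4 RPKM in Con and 1.14, 1.66 and 13.7 RPKM in STZ (log2 change -3.16, SE 0.79, adjusted p = 0.0102), under the same uncertainty as C4b. C1rb, a mouse copy of the C1r protease gene, was at 31.9, 3.13 and 21.4 RPKM in Con and 1.73, 1.35 and 1.32 RPKM in STZ (log2 change -2.56, SE 0.74, adjusted p = 0.0197), and it was spread over 10-fold within the Con group. Among 14 liver transcription factors, 5 rose (Hnf4a, Cebpb, Cebpd, Nr5a2 and Stat3) and 0 fell as deposited, against 33.0% and 5.52% of all genes. After scaling 4 rose (all but Stat3) and 1 fell, against 14.0% and 13.3%. Marker sums of Kupffer cells, the resident macrophages, ran from 64.3 to 96.7 RPKM in Con and from 96.2 to 212 RPKM in STZ, with a slight overlap. Marco (1.81 to 3.34 RPKM in Con, 9.67 to 67.4 RPKM in STZ) and Timd4 (1.45 to 2.34 and 2.38 to 6.08 RPKM) were higher without overlap. Clec4f, Vsig4, Cd5l, Adgre1, Csf1r and Cd68 overlapped between the groups. Marker sums of stellate cells (6 genes) ran from 98.8 to 138 RPKM in Con and, without overlap, from 153 to 195 RPKM in STZ. Dcn held most of this sum, at 61.4 to 71.6 RPKM in Con and 99.6 to 117 RPKM in STZ. Hhip, under 1 RPKM throughout, was also higher without overlap, whereas Lrat, Reln, Ecm1 and Colec11 overlapped between the groups. The sum of 5 lymphocyte markers was lower without overlap, at 1.93 to 2.37 RPKM in Con and 0.73 to 1.75 RPKM in STZ. Each of these genes stayed under 1 RPKM in both groups. Cd79a and Ms4a1 did not overlap between the groups, whereas Cd79b, Cd3e and Cd3g did. Mean Cd3e was 0.363 RPKM in Con and 0.327 RPKM in STZ. The part of other cell types in the results was not tested. Changes in the numbers of a cell type and in RNA per cell cannot be told apart in whole tissue.

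AOS given without STZ was compared with Con, and with STZ it was compared with STZ alone. In AOS against Con 0 of the 38 genes were called in limma, against 0.00924% of the 10822 genes tested in the fit of 6 groups, and 2 had an unadjusted p under 0.05, against 7.22% of all genes. These were F13b, at 90.99, 88.4 and 90.4 RPKM in AOS (log2 change 0.36, SE 0.11, adjusted p = 0.553), and Klkb1, at 61.2, 60.2 and 61.5 RPKM in AOS (log2 change 0.39, SE 0.16, adjusted p = 0.654). F5 followed, at 67.2, 66.9 and 69.7 RPKM (log2 change 0.29, SE 0.14, adjusted p = 0.687). C6 was 44.3, 71.97 and 59.7 RPKM in AOS, below all Con libraries, without being called (log2 change -0.88, SE 0.58, adjusted p = 0.797). In 15 of the 38 genes the AOS and Con libraries did not overlap (11 above, 4 below), against 24.4% of all genes. Con 3 and AOS 3 lay between replicates 1 and 2 of their groups in nearly all genes checked. Lack of overlap here thus rests largely on replicates 1 and 2 and is easier to reach than with 3 independent libraries. In STZ+AOS against STZ 0 of the 38 were called, against 0% of all genes, and 2 had an unadjusted p under 0.05, against 6.07% of all genes. Masp1, at 40.2, 41.8 and 43.1 RPKM in STZ+AOS and 35.05, 30.1 and 36.9 RPKM in STZ, had the smallest p (log2 change 0.29, SE 0.10, adjusted p = 0.806). It was followed by Klkb1, at 33.1, 49.9 and 28.7 RPKM in STZ+AOS (log2 change -0.39, SE 0.16, adjusted p = 0.806), and by Pros1, at 20.7, 19.7 and 28.9 RPKM (log2 change 0.30, SE 0.14, adjusted p = 0.811).

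STZ+AOS against AOS repeats the STZ comparison in other mice, which share no library with STZ or Con. Here 6 of the 38 genes rose, against 31.8% of all genes, and 10 fell, against 6.11%, with a median of -0.18 over the 38 genes. The 6 were Kng2, Pros1, Mbl2, F9, F5 and C3, and the 10 were F11, C9, C8g, C6, C8b, C8a, Mbl1, C4bp, Klkb1 and Proc. Of these 16 calls, 12 held whichever library was left out. F13b was not among the 16, although it was called in all 6 fits of STZ against Con that left out a library. Without AOS 3 there were 15 calls among the 38 genes, against 2955 of all 10807 genes tested. Without STZ+AOS 3, the library with acinar markers, there were 14, against 3457 of all 10773 genes tested. After median-ratio scaling 2 of the 38 rose (Kng2 and Pros1), against 12.2% of all genes, and 16 fell, against 12.3%, so Mbl2, F9, F5 and C3 were higher as deposited only.

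F11 was at 44.2, 46.6 and 46.9 RPKM in AOS and 18.2, 21.5 and 15.7 RPKM in STZ+AOS (log2 change -1.28, SE 0.18, adjusted p = 2.1e-04). C9 was at 212, 288 and 270.3 RPKM in AOS and 39.5, 47.5 and 70.1 RPKM in STZ+AOS (log2 change -2.30, SE 0.42, adjusted p = 0.00108). C8g was at 419, 331 and 335 RPKM and 169, 240.1 and 199 RPKM (log2 change -0.84, SE 0.16, adjusted p = 0.00154). C6 was at 6.03, 3.46 and 15.8 RPKM in STZ+AOS (log2 change -2.86, SE 0.58, adjusted p = 0.00205). None of these 4 genes overlapped between AOS and STZ+AOS, as held for 22 of the 38 genes and for 49.1% of all genes tested. C8a was at 217, 234 and 237 RPKM in AOS and 58.2, 46.9 and 92.4 RPKM in STZ+AOS (log2 change -1.84, SE 0.48, adjusted p = 0.00895), and C8b at 140.0, 188 and 166 RPKM and 63.4, 48.7 and 65.6 RPKM (log2 change -1.46, SE 0.30, adjusted p = 0.00235). Thus 5 of the 6 terminal-pathway genes were lower again, and Hc was not called (log2 change -0.27, SE 0.19, adjusted p = 0.271).

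Kng2 was at 174, 152 and 157 RPKM in AOS and 514, 354 and 309 RPKM in STZ+AOS (log2 change 1.24, SE 0.22, adjusted p = 9.6e-04), close in size to its change without AOS. Pros1 was at 12.5, 12.1 and 13.5 RPKM in AOS, below every STZ+AOS library (log2 change 0.80, SE 0.14, adjusted p = 9.3e-04). The fibrinogen chains were not called. Fgb was at 3525, 2952 and 3263 RPKM in AOS and 6132, 2339.5 and 2553 RPKM in STZ+AOS (log2 change 0.036, SE 0.33, adjusted p = 0.941), and STZ+AOS 1 stood far above both others of its group, as it did for the acute-phase sum. Without STZ+AOS 1 the change of Fgg was -0.67 (adjusted p = 0.0698) and that of Fga -0.56 (adjusted p = 0.124).

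The difference between the STZ change with AOS and that without AOS was not called for any of the 38 genes, nor for any gene (0%). Of the 38 genes, 2 had an unadjusted p under 0.05, against 5.4% of all genes, namely Klkb1 (difference of log2 changes -0.78, SE 0.23, adjusted p = 0.856) and F13b (difference of log2 changes -0.38, SE 0.16, adjusted p = 0.856), and Masp2 came next (difference of log2 changes -0.38, SE 0.19, adjusted p = 0.856). Mean Masp2 was 159 ± 15.3 RPKM without either agent, 166 ± 20.8 RPKM after STZ alone, 176 ± 9.72 RPKM after AOS alone and 142 ± 27.1 RPKM after both. The fall of Klkb1 was called in STZ+AOS against AOS and not in STZ against Con, but the test of the difference itself did not pass.

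Transplants were compared with STZ to ask whether they moved the diabetic liver. In A10-FMT against STZ 0 of the 38 genes were called, against 0.226% of all genes, and 11 had an unadjusted p under 0.05, against 20.9% of all genes. In Con-FMT against STZ 0 were called, against 0.00943%, and 10 had an unadjusted p under 0.05, against 20.1% of all genes. F11 had the smallest p in both, at 32.5, 31.7 and 27.8 RPKM in A10-FMT (log2 change 0.78, SE 0.19, adjusted p = 0.0753) and 27.2, 37.01 and 30.8 RPKM in Con-FMT (log2 change 0.82, SE 0.19, adjusted p = 0.0751), above all STZ and below all Con libraries in both groups. C8b was at 121, 135 and 141 RPKM in A10-FMT (log2 change 1.202, SE 0.34, adjusted p = 0.102) and 103, 151 and 145 RPKM in Con-FMT (log2 change 1.19, SE 0.34, adjusted p = 0.109). Pros1 was at 14.01, 12.04 and 13.4 RPKM in A10-FMT, below all STZ libraries (log2 change -0.45, SE 0.13, adjusted p = 0.101), and Mbl1 at 196, 209 and 212 RPKM in Con-FMT, above all of them (log2 change 0.81, SE 0.21, adjusted p = 0.0909). Between A10-FMT and STZ, 8 of the 38 genes did not overlap, against 21.5% of all genes. Between Con-FMT and STZ it was 6, against 17.7%.

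These counts rested on STZ 3. Without it, 10 of the 38 genes were called in A10-FMT against STZ, against 12.7% of all genes, and 8 in Con-FMT against STZ, against 15.5%. C6, C8a, C8b, C9, F11 and Mbl1 were then higher and Kng1 and Kng2 lower in both transplant groups, and C8g (higher) and Pros1 (lower) were added in A10-FMT. C8a, for example, changed by 2.30 (SE 0.31, adjusted p = 0.00224) in A10-FMT and by 2.55 (SE 0.31, adjusted p = 9.8e-04) in Con-FMT. Both comparisons use the same 2 remaining STZ libraries and no other STZ library. With STZ 1 or STZ 2 left out instead, 0 of the 38 were called in either comparison, against at most 113 of all genes tested.

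**Figure D4:**
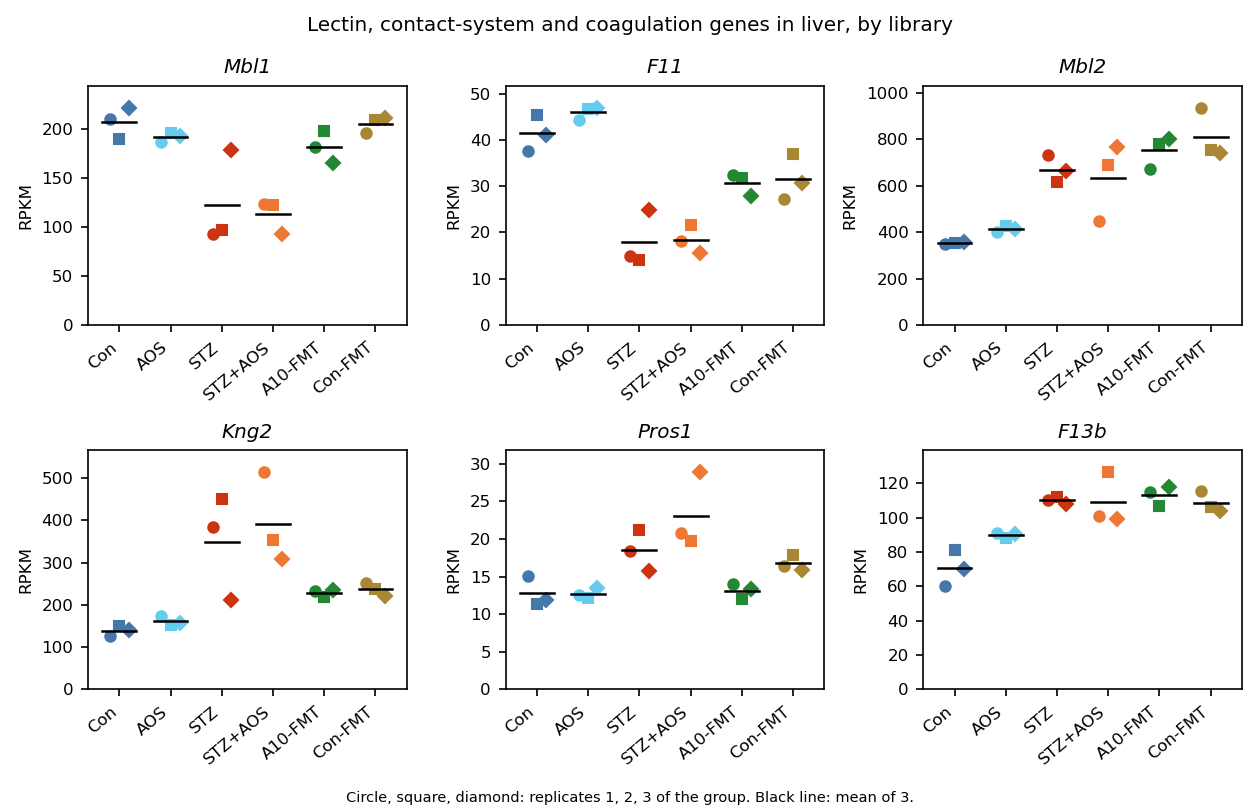
RPKM of Mbl1, F11, Mbl2, Kng2, Pros1 and F13b in each of the 18 libraries, with the mean of each group. Mbl1 and F11 are lower and Kng2 is higher in STZ 1 and STZ 2 than in STZ 3 and the transplant groups, whereas Mbl2 and F13b stand above Con in all groups given STZ, at 447 RPKM or more and 99.5 RPKM or more. The AOS libraries, without STZ, also lie above all Con libraries for Mbl2 (399 to 426 RPKM) and F13b (88.4 to 90.99 RPKM).

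Both transplant groups were compared with the Con libraries already used for STZ, so these comparisons share their controls. A10-FMT livers had 4 of the 38 genes higher, against 15.9% of all genes, and 4 lower, against 2.47%. Con-FMT livers had 5 higher, against 17.5%, and 1 lower, against 1.89%. Mbl2 was at 675, 781 and 803 RPKM in A10-FMT (log2 change 1.08, SE 0.13, adjusted p = 0.00111) and 937, 753 and 740.3 RPKM in Con-FMT (log2 change 1.19, SE 0.13, adjusted p = 9.5e-04). F13b was at 115, 107 and 118 RPKM (log2 change 0.69, SE 0.11, adjusted p = 0.00371) and 116, 106 and 104 RPKM (log2 change 0.62, SE 0.11, adjusted p = 0.00707). The STZ means of Mbl2 and F13b were 669.8 ± 58.6 and 110.4 ± 2.02 RPKM. F5 was at 84.05, 70.4 and 90.6 RPKM in A10-FMT (log2 change 0.55, SE 0.13, adjusted p = 0.0192) and 75.7, 80.6 and 75.1 RPKM in Con-FMT (log2 change 0.47, SE 0.13, adjusted p = 0.0323).

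Kng2 was at 232, 219 and 236 RPKM in A10-FMT (log2 change 0.72, SE 0.22, adjusted p = 0.0423) and 253, 237 and 221 RPKM in Con-FMT (log2 change 0.77, SE 0.22, adjusted p = 0.0341), with every transplant library above every Con library. Libraries did not overlap, in either direction, in 21 of the 38 genes between A10-FMT and Con, against 48.9% of all genes. Between Con-FMT and Con it was 20, against 45.9%. F9 was called higher in Con-FMT, at 103, 104 and 98.6 RPKM (log2 change 0.35, SE 0.09, adjusted p = 0.0244), with 101, 88.8 and 99.9 RPKM in A10-FMT (log2 change 0.27, SE 0.09, adjusted p = 0.0575). C6 was lower in both, at 17.6, 31.2 and 18.02 RPKM in A10-FMT (log2 change -2.26, SE 0.58, adjusted p = 0.0235) and 5.67, 25.1 and 23.7 RPKM in Con-FMT (log2 change -2.73, SE 0.58, adjusted p = 0.0119), and Con-FMT 1 was the lowest of these 6 libraries. The other terminal-pathway genes were not called. Mean C8a amounted to 149.8 ± 14.5 RPKM after A10-FMT and to 184 ± 60.9 RPKM after Con-FMT, mean C9 180.5 ± 23.4 and 201 ± 61.6 RPKM, mean C8g 310.2 ± 39.05 and 299 ± 45.9 RPKM, and mean Hc 78.2 ± 18.9 and 88.9 ± 16.5 RPKM.

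In A10-FMT the fibrinogen chains Fga, at 1563, 1248 and 1173 RPKM (log2 change -0.95, SE 0.27, adjusted p = 0.0346), and Fgg, at 2161, 1676 and 1537 RPKM (log2 change -0.91, SE 0.27, adjusted p = 0.0398), and Cfb, at 442, 409 and 423 RPKM (log2 change -0.47, SE 0.14, adjusted p = 0.0394), were lower than in Con. In Con-FMT Fga was at 1312, 2553 and 1635 RPKM, with Con-FMT 2 inside the Con range, and was not called (log2 change -0.53, SE 0.27, adjusted p = 0.178). Con-FMT 2 also had the highest acute-phase sum of the transplant groups (9802 RPKM). After median-ratio scaling A10-FMT had 2 of the 38 higher (Mbl2 and F13b), against 6.05% of all genes, and 5 lower (Cfb, Hc, C6, Fga and Fgg), against 4.93%. Con-FMT had the same 2 higher, against 4.60%, and 3 lower (C2, Cfb and C6), against 3.64%, so F5, Kng2 and F9 were higher as deposited only. Without Con 3 the calls fell to Mbl2 and F13b in A10-FMT, and to Mbl2, F13b and C6 in Con-FMT. Over all 10573 genes tested, 687 were then called in A10-FMT and 705 in Con-FMT. Without Con 1, A10-FMT 1 or A10-FMT 3, too, Mbl2 and F13b were the calls in A10-FMT. Over all genes tested, 547, 865 and 623 were called in these fits.

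The transplants from AOS-treated and control donors were also compared with each other. In A10-FMT against Con-FMT 0 were called, against 0% of all genes, and 2 had an unadjusted p under 0.05, against 2.86% of all genes. Pros1 (log2 change -0.33, SE 0.13, adjusted p = 0.999) was at 16.5, 17.9 and 15.9 RPKM in Con-FMT, above every A10-FMT library. Libraries of the 2 groups did not overlap in 2 of the 38 genes, against 8.92% of all genes. The A10-FMT libraries had 45.99, 46.4 and 43.9 RPKM of C2, and those of Con-FMT had 35.2, 41.1 and 34.8 RPKM (log2 change 0.29, SE 0.13, adjusted p = 0.999). Fgb came next, at 2528, 2160.1 and 2011 RPKM after A10-FMT and 2233, 4689 and 2776 RPKM after Con-FMT (log2 change -0.47, SE 0.28, adjusted p = 0.999), and its groups overlapped.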

How the data were processed

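Liver RNA of 18 libraries (6 groups of 3) was sequenced by the authors after oligo(dT) selection, and the deposited values are RPKM per gene, normalized by the authors to transcript length and mapped reads. The study's methods name SOAPaligner and the submitters' processing notes name Bowtie 0.12.2 with mm10, so the aligner behind the values is not settled here. No read counts were used, so no counting interval is given and the absolute depth is unknown.

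Values were taken as log2(RPKM + 1), and a gene entered a fit when 3 or more of its libraries reached 1 RPKM. Tests were run with limma 3.58.1 in R 4.3.3 (moderated test with a variance trend, two-sided, Benjamini-Hochberg adjustment over all genes tested). Con, STZ, A10-FMT and Con-FMT were fitted together (12 libraries, 10602 genes), and comparisons with AOS or STZ+AOS used all 6 groups (10822 genes). On simulated data for STZ against Con with 200 genes changed by a log2 change of 2, 194 were recovered, with 13 false calls, over 10602 genes. The simulated noise was normal and independent between libraries, and in the data 4087 genes were called. The simulation checks the code and does not give the recovery or false-call rate of the tests reported here. A log2 change of RPKM + 1 understates the change of low genes.

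The 38 genes and all lists were chosen with earlier results of these data known. Values by library were given for up to 6 called genes with the highest and up to 6 with the lowest change in STZ against Con, for up to 6 called genes with the smallest adjusted p in each other comparison, or 3 genes where none was called, and for C3, Hc, F2, Fga, Fgb, Fgg, Plg and Serpinc1. Of the further pathway genes, the up to 8 that ranked first by adjusted p between STZ and Con were named. Other genes described by library, and Cpb2 and Vwf, were chosen after their values were seen. Alternatives were median-ratio scaling, quantile normalization, a pseudocount of 0.1, other filters on low values, no variance trend, other sets of libraries, a block for the replicate number and a stricter threshold. Replicate numbers went together in A10-FMT and Con-FMT (correlations of same-numbered deviations 0.122, 0.292 and 0.179), as seen in the data and not stated by the labels. Fits without Con 3 and AOS 3 were added after seeing the data. Promoters were from RefSeq (GRCm38.p6), and gene positions and transcripts from GENCODE. The name of 1 gene counted in a list is not reported here.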

Additional observations from a re-analysis of the deposited data

How the results depend on the processing

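The count of the 38 genes called in STZ against Con (20) ran from 12 to 20 when a library was left out, was 12 without Con 3 and AOS 3, and was 0 at an FDR of 0.001 with a log2 change of at least 1. At that threshold A10-FMT against Con gave 0, Con-FMT against Con 1 and STZ+AOS against AOS 2. For A10-FMT against Con (8) the count was 5 after quantile normalization, 5 without a filter on low values, 16 in a fit of only the groups compared, 4 with the replicate number as a block, 2 without Con 3 and AOS 3 with or without median-ratio scaling, and 2 to 7 when a library was left out. For Con-FMT against Con (6) it was 3 without Con 3 and AOS 3, 1 when median-ratio scaling was added, and 3 to 7 when a library was left out. For A10-FMT against STZ and Con-FMT against STZ (0 each) it was 0 to 10 and 0 to 8, the higher values without STZ 3. In the fits that left out a library, 10548 to 10586 genes were tested. Of all genes, 2562 to 5012 were then called in STZ against Con. The range was 547 to 1468 in A10-FMT against Con and 603 to 2096 in Con-FMT against Con. It was 0 to 1343 in A10-FMT against STZ and 0 to 1636 in Con-FMT against STZ. Shares over all genes in the other settings are not given here.

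The median log2 change of the 38 genes was lower after median-ratio scaling and quantile normalization, at -0.2711 and -0.2505 for STZ against Con (-0.0090 as deposited), -0.1698 and -0.1757 for A10-FMT against Con, -0.1035 and -0.0946 in Con-FMT against Con, and -0.4227 and -0.3288 in STZ+AOS against AOS (-0.1751 as deposited). The sign turned to negative in both transplant comparisons with Con. Estimates that changed sign in STZ against Con were F2 (-0.19 after median-ratio scaling, -0.17 after quantile normalization, -0.19 after median-ratio scaling without Con 3 and AOS 3), Plg (-0.20, -0.11 and -0.21) and Serpinc1 (-0.15 and -0.14, both with median-ratio scaling), none of them called. Over all groups 15 of 45 same-number pairs of deviations correlated above 0.1 (range -0.251 to 0.481), and all 3 pairs did so for A10-FMT with Con-FMT and for no other pair of groups, and there the block changed no call (0 of the 38 called). In other comparisons the libraries share only a number, and with the block 18 of the 38 were called between STZ and Con and 17 in STZ+AOS against AOS. Among single named genes 107 calls were lost and 9 gained over all alternatives. Where no cause is given, the cause was not tested.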
